A study of Drosophila melanogaster with 2 samples.

Results

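The 10 genes described here encode insulator and architectural proteins of Drosophila: Chro, CTCF, su(Hw), BEAF-32, Cp190, mod(mdg4), Trl, M1BP, Dref and pita. They were chosen by name, and all 10 were found among the 13968 protein-coding genes of the annotation. What was recorded for each was every Ssrp peak whose summit (its strongest base) lay in the gene or within 2 kb of it. The assay was ChIP-seq, the sequencing of DNA that is precipitated with a chromatin protein, on whole embryos aged 0 to 16 h, males and females together. The flies were 1 transgenic line that stably expresses Ssrp with GFP at its C-terminus, and the antibody recognised GFP. Replicates 1 and 2, biological replicates per the labels, form the only group. Whole embryos mix cell types and ages, which cannot be told apart, and peak lists allow no check of the tissue by its markers. There is no second condition, so no comparison of conditions was possible and no test was run. Libraries from untagged embryos or input DNA were not analysed here.

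Ssrp is a subunit of FACT, a histone chaperone that loosens and rebuilds nucleosomes ahead of and behind polymerases. Insulator proteins bind DNA at domain borders and at promoters and can block an enhancer from acting across them. CTCF, su(Hw), BEAF-32 and pita bind DNA directly, while Cp190 and mod(mdg4) are BTB-domain cofactors that such DNA binders recruit. Trl encodes GAGA factor, and M1BP and Dref encode factors that recognise core promoter elements of constitutively active genes. Chro encodes a chromodomain protein of polytene interbands and domain borders.

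Of the 10 genes, 9 had a summit of the IDR list in the gene or within 2 kb. The IDR list is the authors' list thresholded by the irreproducible discovery rate, which scores how alike the peaks rank in the replicates. Its 5445 peaks were the strongest of the pooled list, and single peaks can still differ widely in rank between replicates. Over all protein-coding genes, these 10 included, the share was 35.5%. The 10 genes ran from 1909 to 26556 bp, with a median of 4473 bp against 2165 bp over all protein-coding genes, and a longer gene has more room for a summit. Among the 6959 protein-coding genes within that range of lengths, 42.9% had such a summit. Within 500 bp of a transcription start site (TSS), again 9 of the 10 genes had an IDR summit, against 19.3% of protein-coding genes. CTCF was the gene without one in both counts. The longer lists separated the genes less. All 10 had a summit in the pooled list of 30000 peaks, against 68.2% of protein-coding genes, and all 10 had one in the replicate lists of the same length, against 68.4% in replicate 1 and 71.4% in replicate 2.

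**Figure D1:**
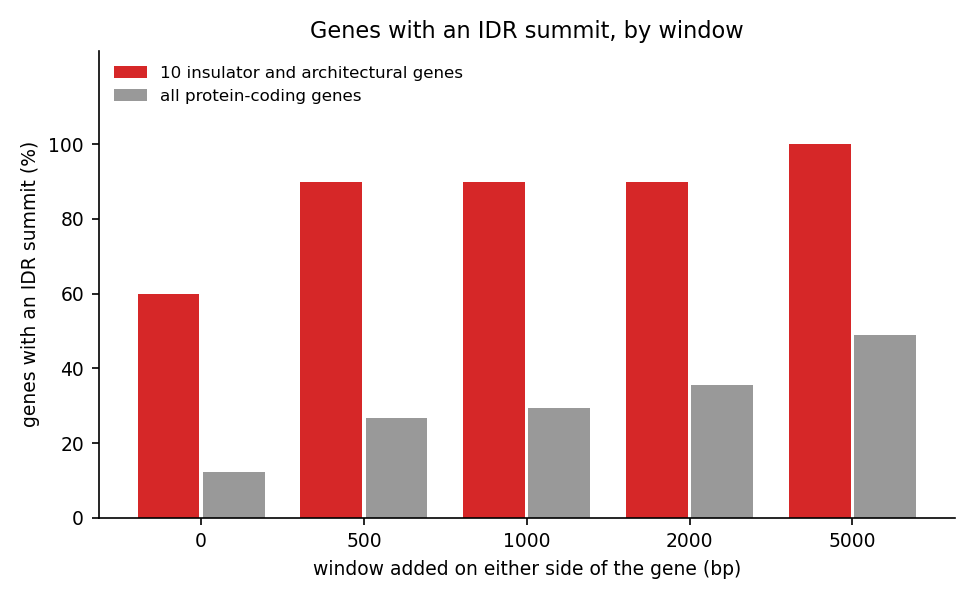
Share of genes with an IDR summit (y axis, %) by the window added on either side of the gene (x axis, bp), for the 10 insulator and architectural genes (red) and all protein-coding genes (grey). The 10 genes stood at 60% and all genes at 12.2% with no window, and at 90% and 35.5% with 2000 bp.

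The genes held 19 IDR peaks in all, or 173 per Mb of the 110 kb searched, against 39.6 per Mb over the chromosomes. The 2 densities are not alike, since the chromosomes were taken at full length, with stretches far from genes. The density in the same windows around other genes was not computed. Of the 10 genes, 4 had 2 or more IDR peaks, against 11.9% of protein-coding genes: mod(mdg4) had 5, Trl 4, pita 3 and BEAF-32 2. Another 5 genes had 1 peak each. The strongest peak of the 9 genes had a median rank of 468, against 1866 for the 4955 protein-coding genes with an IDR summit. The median was 1859.5 for such genes within the same range of lengths.

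**Figure D2:**
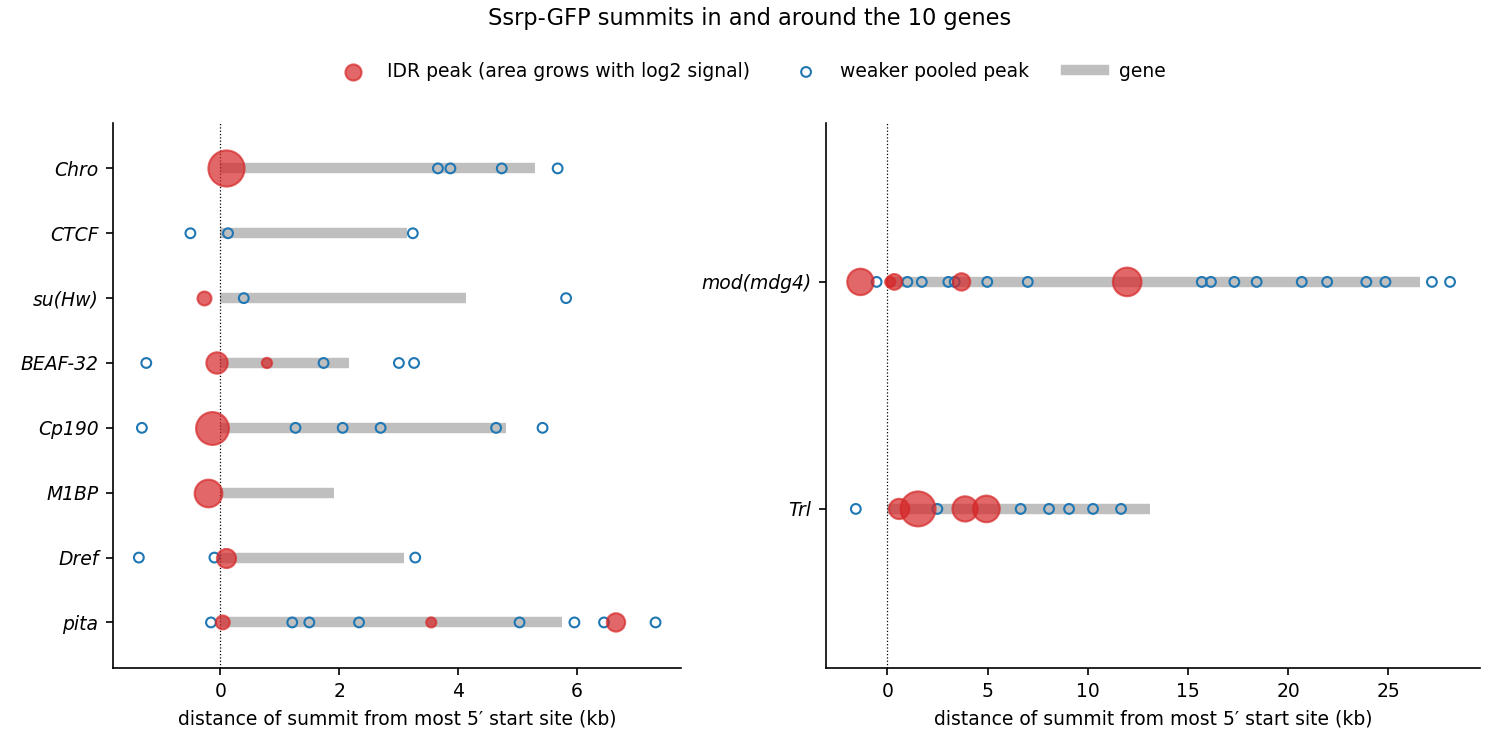
Summits in and around each gene, by distance from its most 5′ TSS (x axis, kb; negative is upstream), with the 8 shorter genes on the left and the 2 longest on the right. Filled circles are IDR peaks, with an area that grows with the log2 of the signal, open circles are weaker peaks of the pooled list, and grey bars are the genes. IDR peaks cluster at the 5′ ends, and mod(mdg4), Trl and pita carry them further along, at pita also past the 3′ end.

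The strongest peaks belonged to Chro, Trl and Cp190. Of the 10 genes these 3 (30%) had one of the 100 strongest IDR peaks, against 1.37% of protein-coding genes, with the limit of 100 chosen after the ranks were seen. At Chro (FBgn0044324, 3L, 22873702 to 22878984, minus strand) the peak ran from 22878698 to 22879102, and it ranked 8 in the IDR list, 7 in replicate 1 and 8 in replicate 2. The deposited signal, by which the authors' peaks are ranked here within a list and never between lists, was 3957 in the IDR list, 1807 in replicate 1 and 2150 in replicate 2. The summits of the 2 replicates lay 3 bp apart. The summit fell inside the 5′ UTR of the form of Chro that starts most upstream, and 115 bp upstream of the TSS that 3 of the 5 transcripts use.

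Trl (FBgn0013263, 3L, 14747929 to 14761049, minus strand) had its strongest peak from 14759316 to 14759730. It ranked 17 in the IDR list, 16 in replicate 1 and 17 in replicate 2, with signals of 3162, 1515 and 1636. Its summit lay 1532 bp downstream of the most 5′ TSS, in an intron of the 1 transcript that starts there. The TSS of 7 of the 10 transcripts lay 1555 bp further downstream. The other 3 IDR peaks of Trl ranked 620, 845 and 2009. Those of rank 2009 and 620 were intronic, and that of rank 845 lay 166 bp downstream of the most 3′ of the 4 TSSs. CG42507 overlaps Trl on the same strand and shares a TSS with it, so the peaks of rank 845 and 620, which lie in both, cannot be given to either gene.

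At Cp190 (FBgn0000283, 3R, 15270432 to 15275241, minus strand) the peak from 15275184 to 15275592 ranked 61 in the IDR list, 63 in replicate 1 and 57 in replicate 2. Its signals were 2151, 988 and 1163. The summit lay 139 bp upstream of the TSS of Cp190 and 142 bp upstream of that of CG4338, which is transcribed the other way. No other IDR summit lay within 2 kb of Cp190.

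**Figure D3:**
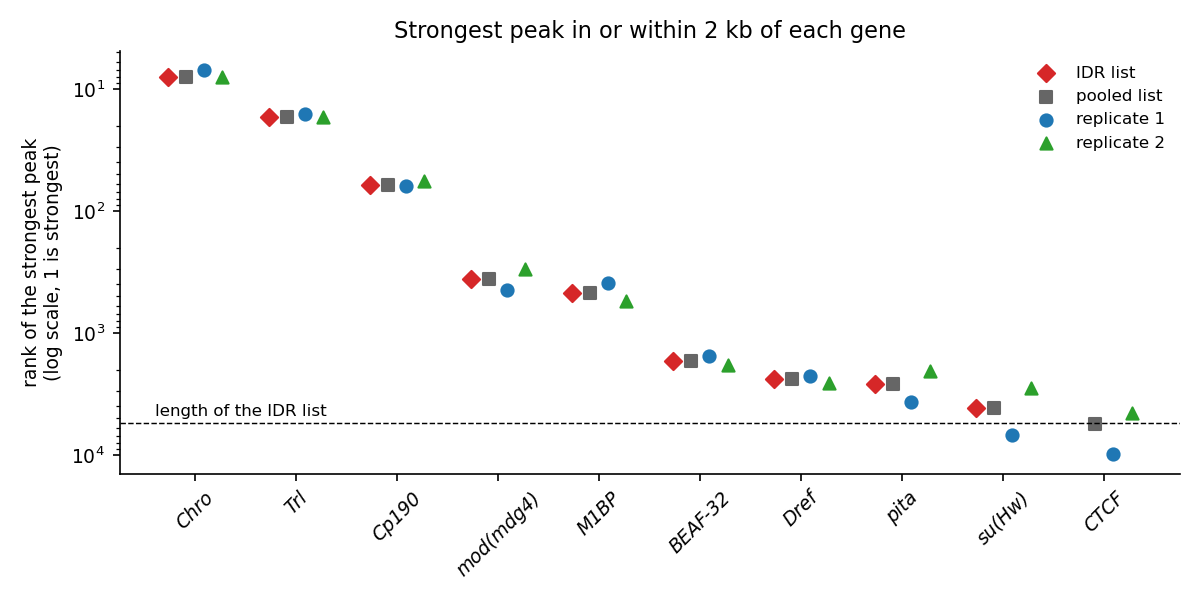
Rank of the strongest peak in or within 2 kb of each gene (y axis, log scale, 1 is strongest), in the IDR list, the pooled list and each replicate list. Chro, Trl and Cp190 stand within 100 in every list, CTCF lies past the end of the IDR list in the pooled list and in replicate 1, and su(Hw) in replicate 1.

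The sequence around 6 summits is shown, from ranks 17 to 5297, to give the letters behind their GC contents. Each is read 5′ to 3′ on the minus strand, the strand of the named gene, from the RefSeq copy of release 6 of the reference genome (dm6). Runs of 10 or more A or T are in capitals, and each stretch reaches at most 75 bp to either side of the summit without entering an exon. The summit of Cp190 (rank 61, chr3R:15275305-15275455) and that of M1BP (rank 468, chr3R:8731824-8731974) lie between neighbouring genes. That of Trl (rank 17, chr3L:14759442-14759592) is intronic, and the summit upstream of mod(mdg4) (rank 653, chr3R:21378667-21378817) lies between it and tin. The summit of su(Hw) (rank 4141, chr3R:14308785-14308935) also lies between neighbouring genes. That of mod(mdg4) at its own TSS (rank 5297, chr3R:21377183-21377287) lies in an intron, just past the splice donor with which the stretch opens.
M1BP, rank 468: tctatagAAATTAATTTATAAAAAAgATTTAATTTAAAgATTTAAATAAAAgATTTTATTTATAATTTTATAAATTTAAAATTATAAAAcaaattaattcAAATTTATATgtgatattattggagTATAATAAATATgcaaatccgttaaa
Cp190, rank 61: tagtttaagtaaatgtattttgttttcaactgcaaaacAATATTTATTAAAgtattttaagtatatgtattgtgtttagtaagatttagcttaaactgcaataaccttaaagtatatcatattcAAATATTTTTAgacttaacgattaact
mod(mdg4), rank 653: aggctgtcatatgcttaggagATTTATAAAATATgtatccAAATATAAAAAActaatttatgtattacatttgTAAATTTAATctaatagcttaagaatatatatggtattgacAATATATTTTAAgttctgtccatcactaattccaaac
Trl, rank 17: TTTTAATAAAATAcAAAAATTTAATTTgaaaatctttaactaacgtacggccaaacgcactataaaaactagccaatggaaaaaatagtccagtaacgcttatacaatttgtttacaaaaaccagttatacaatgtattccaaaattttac
su(Hw), rank 4141: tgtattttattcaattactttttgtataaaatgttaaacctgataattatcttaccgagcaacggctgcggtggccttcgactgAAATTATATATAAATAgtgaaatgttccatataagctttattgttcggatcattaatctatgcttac
mod(mdg4), rank 5297: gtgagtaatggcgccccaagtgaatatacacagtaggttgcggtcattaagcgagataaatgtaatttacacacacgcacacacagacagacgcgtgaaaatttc
The M1BP stretch has a GC content of 11.3% and a run of 37 A or T bases. The stretches at Cp190, upstream of mod(mdg4) and in Trl have 20.5%, 23.2% and 25.8%, with longest runs of 13 bases each. The su(Hw) stretch has 30.5% and a run of 16 bases, and the stretch of rank 5297 has 43.8% and no run over 7 bases. The summits of M1BP and upstream of mod(mdg4) fall inside a run, and those of Cp190, Trl and su(Hw) lie outside the runs. Run length did not follow rank: the intronic summit of mod(mdg4) at rank 2933 has a run of 20 bases within 75 bp, and that of Trl at rank 620 has a longest run of 10.

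Head-to-head neighbours were common. A protein-coding TSS on the opposite strand lay within 1000 bp upstream at 6 of the 10 genes, against 36.2% of protein-coding genes. All 6 had an IDR summit within 500 bp of a TSS of their own, against 35.1% of all head-to-head genes, though at Trl it was the most 3′ TSS and not the one that faces the neighbour. Of the other 4 genes, 3 had one, against 10.4% of genes without such a neighbour. Both genes shared the summit in 5 of the 6 pairs, so a peak there cannot be given to either gene. The other pair, Trl and Mgat4a, whose TSSs are 979 bp apart, shared none.

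Where the TSSs of a pair were further apart, the IDR summit sat about midway. The TSSs of Cp190 and CG4338 are 281 bp apart, those of M1BP and CG8202 393 bp, and those of su(Hw) and Polr2I, a gene for an RNA polymerase II subunit, 500 bp. Their summits lay 1.5, 4.5 and 21 bp from the midpoint. Over the 613 head-to-head pairs with a shared IDR summit and a gap of 200 bp or more, 96.7% had it between the TSSs, with a median of 41 bp from the midpoint. A shared summit has to lie near both TSSs, so in wide gaps its place between them is partly set in advance. The 2 narrow pairs differed in where the summit lay. The TSSs of Chro and Ssl1, a gene for a TFIIH subunit, are 105 bp apart, and those of Dref and RpL13, a ribosomal protein gene, 84 bp. In both the IDR summit lay outside the gap, 101 bp into Chro and 100 bp into Dref. Replicate 1 had a further, weaker summit of rank 6426 inside the gap of Dref, 31 bp upstream of its TSS. For Chro the gap is taken from its most 5′ TSS, which 1 of its 5 transcripts uses. The TSS that 3 of them use lay 115 bp downstream of the summit. Between that TSS and the TSS of Ssl1 the summit thus lay inside, so the placing of this pair depends on the TSS taken. Over the 162 pairs with a gap under 200 bp, 25.9% had the summit between the TSSs. A narrow gap leaves less room for a summit, so the shares for narrow and wide gaps are not alike.

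mod(mdg4) (FBgn0002781, 3R, 21350846 to 21377401, minus strand), whose 22 annotated transcripts share 1 TSS, had the most peaks. Many of its messages are joined by trans-splicing from separately started precursors, which the annotation lists as pre-mod(mdg4) genes within the locus. The strongest of the 5 IDR peaks, of rank 362, lay 11967 bp into the gene (21365253 to 21365598). Its summit was 54 bp downstream of the TSS of pre-mod(mdg4)-E and within 500 bp of the TSS of 10 pre-mod(mdg4) genes. It ranked 442 in replicate 1 and 300 in replicate 2, with signals of 1076 in the IDR list, 461 in replicate 1 and 607 in replicate 2.

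Another peak of mod(mdg4), of rank 2933, lay 3703 bp into the gene and 123 bp upstream of the TSS of pre-mod(mdg4)-AA. The peak of rank 653 lay 1341 bp upstream of mod(mdg4) but 235 bp upstream of tin, the tinman homeobox gene of heart development, and it was nearer to that TSS. At the TSS of mod(mdg4) itself the peaks were weaker, of rank 5297 and 3507, with summits at 143 and 348 bp downstream. These 2 peaks overlap, and both were matched in replicate 2 by the same peak, of rank 6137. They therefore stand for 1 stretch of signal in that replicate.

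M1BP (FBgn0037621, 3R, 8729790 to 8731698, minus strand) had 1 IDR peak, from 8731670 to 8732117, with a signal of 938. It ranked 468 in the IDR list, 390 in replicate 1 and 552 in replicate 2. The pooled list held no further peak within 2 kb of the gene, the smallest of the 10.

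BEAF-32 (FBgn0015602, plus strand) lies on 2R from 14770469 to 14772630. Its stronger peak (14770306 to 14770499) had its summit 57 bp upstream of the most 5′ of 3 TSSs, and ranked 1702 in the IDR list, 1553 in replicate 1 and 1819 in replicate 2. A weaker one, of rank 5286, lay 50 bp upstream of the most 3′ TSS and 44 bp downstream of the TSS of the antisense gene asRNA:CR42254, and ranked 8727 in replicate 1 and 4427 in replicate 2. Each of the outer TSSs of the gene thus had a summit just upstream. The stronger summit, too, was within 500 bp of a TSS of asRNA:CR42254, and it lay in a noncoding exon.

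At Dref (FBgn0015664, 2L, 9964147 to 9967229, minus strand) the peak from 9966931 to 9967326 ranked 2371 in the IDR list, 2239 in replicate 1 and 2575 in replicate 2. Its signal of 323 was 1.11 times the median of the list. The replicate summits lay on opposite sides of the pooled one, 72 bp downstream in replicate 1 and 31 bp upstream in replicate 2.

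At pita (FBgn0034878, 2R, 23548967 to 23554712, minus strand) the 3 IDR peaks had ranks of 2639, 4155 and 5335. That of rank 4155 (4816 in replicate 1, 4054 in replicate 2) lay 40 bp downstream of the most 5′ TSS of pita, and its replicate summits were within 1 bp of it. The other 2 were nearer to the TSSs of other genes. The peak of rank 5335 lay 147 bp upstream of Dcp-1, an effector caspase gene inside the pita locus, and ranked 3909 in replicate 1 and 7438 in replicate 2. Its summit was also 385 bp downstream of the more 3′ TSS of pita, in a 5′ UTR of pita. That of rank 2639 lay past the 3′ end of pita, 71 bp upstream of wmd and within 500 bp of the TSS of levy, a cytochrome c oxidase subunit gene. Of the 3 peaks of pita, 1 thus had a TSS of pita as its nearest.

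su(Hw) (FBgn0003567, 3R, 14304455 to 14308589, minus strand) and CTCF (FBgn0035769, 3L, 7353578 to 7356713, minus strand) were the weakest. The IDR peak of su(Hw), midway to Polr2I as described, ranked 4141 with a signal of 204, or 0.701 times the list median. It ranked 8927 in replicate 1 and 2802 in replicate 2, the widest gap between replicates among the 19 peaks. Replicate 1 had a stronger summit of rank 6841 inside the gene, 393 bp downstream of the TSS. The best peak of CTCF, from 7356387 to 7356782 with its summit 128 bp downstream of the TSS, ranked 5621 in the pooled list. Its signal of 153 was 0.973 times the lowest signal of the IDR list, 157, so the gene fell just short of that list. It ranked 9911 in replicate 1 and 4540 in replicate 2. Among the strongest 5445 peaks of replicate 2 alone all 10 genes had a summit, against 35.3% of protein-coding genes. In those of replicate 1 alone 8 did, against 35.6%, with su(Hw) and CTCF the ones without.

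Every one of the 19 IDR peaks had a summit within 200 bp in both replicates, against 98.5% of all IDR peaks. The median distance between the replicate summits was 26 bp, against 22 bp over all IDR peaks. Ranks differed between replicates by a median factor of 1.42, against 1.26 over all, and the factors ran from 1.06 to 3.19. After su(Hw), the peak of mod(mdg4) at rank 3507 moved most, with ranks of 2417 in replicate 1 and 6137 in replicate 2. That replicate 2 peak has its summit 139 bp upstream and also matches the peak of rank 5297, so it was counted for both. With summits required within 100 bp, 18 of the 19 were matched, against 95% of all IDR peaks. Among the 5445 strongest peaks of both replicates 14 of the 19 were matched, against 79.9%. All lists draw on 1 further alignment that the replicates share, and its part in this overlap was not tested. Without read numbers, the depth behind each rank is unknown.

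**Figure D4:**
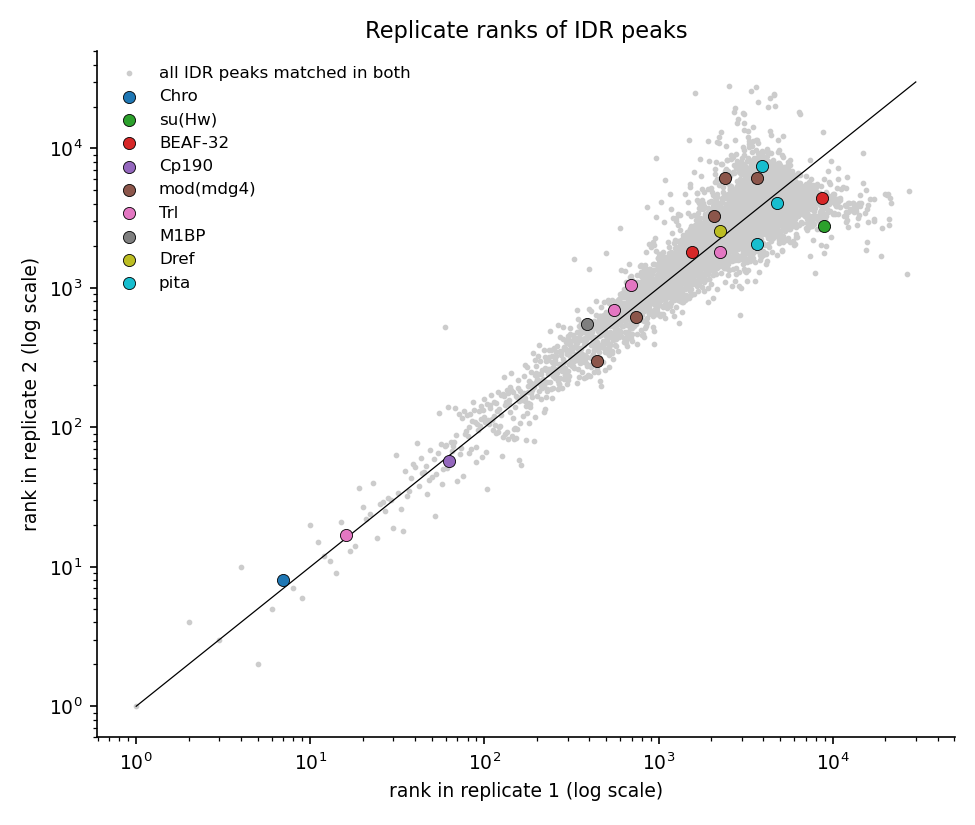
Rank in replicate 1 (x axis) against rank in replicate 2 (y axis), both on log scales, for all IDR peaks matched in both (grey) and the 19 peaks of the 9 genes (coloured by gene). The line marks equal ranks. Chro, the strongest peak of Trl and Cp190 lie close to it, and su(Hw) lies furthest from it among the coloured points.

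Most of these peaks were at promoters, though not always those of the gene itself. By class, 16 of the 19 (84.2%) were within 500 bp of the TSS of some gene, against 40.7% of all IDR peaks, and the other 3 were the intronic peaks of Trl. None of the 19 was intergenic outside promoters, where 16.5% of all IDR peaks lay. The 19, like the weaker peaks below, were picked for lying in or within 2 kb of these genes. Peaks far from any gene were thus left out in advance, while the shares over all peaks include them. Shares over peaks picked alike around other genes were not computed. Of the 19, 12 lay within 500 bp of a TSS of the named gene itself, 7 downstream and 5 upstream, with a median at 70 bp downstream. Another gene had the nearest TSS at 8 of the 19. The 54 weaker peaks of the pooled list around these genes were spread otherwise. Of them 15 (27.8%) lay in coding exons and 13 (24.1%) in promoters, against 15.9% and 21.8% of all 24555 weaker pooled peaks. Untranslated regions outside promoters held 6 (11.1%) on the 5′ side and 9 (16.7%) on the 3′ side, against 1.3% and 5.6%, and introns 8 (14.8%), against 42%. These classes count the parts of any gene, with a 5′ UTR placed before a coding exon. By the transcripts of the named gene, those 6, at mod(mdg4) and Trl, lay in coding exons, an intron or a 3′ UTR. Of those 9, only the ones in Chro, Cp190 and Trl were in a 3′ UTR of the named gene. By gene, mod(mdg4) had 17 of the 54, pita 8, Trl 7, Cp190 6, BEAF-32 and Chro 4 each, CTCF and Dref 3 each, su(Hw) 2 and M1BP 0.

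The GC content of the 101 bp around the 19 summits was 31.5% ± 9.46 (SD over peaks), against 30.0% ± 7.96 over all IDR summits. It ran from 9.90% at M1BP to 47.5% at mod(mdg4), 348 bp downstream of the TSS. At 600 bp on either side the same peaks averaged 48.4% ± 7.64. The summit was poorer in GC than its flanks at 16 of the 19. The exceptions were the 2 peaks at the TSS of mod(mdg4) and the peak of Trl at rank 845, where summit and flanks were both at 43.6%. Around the 54 weaker summits the mean was 44.0% ± 12.6, against 41.4% over all weaker pooled summits. Peaks of 1 locus share their source, so these spreads are not those of independent samples.

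**Figure D5:**
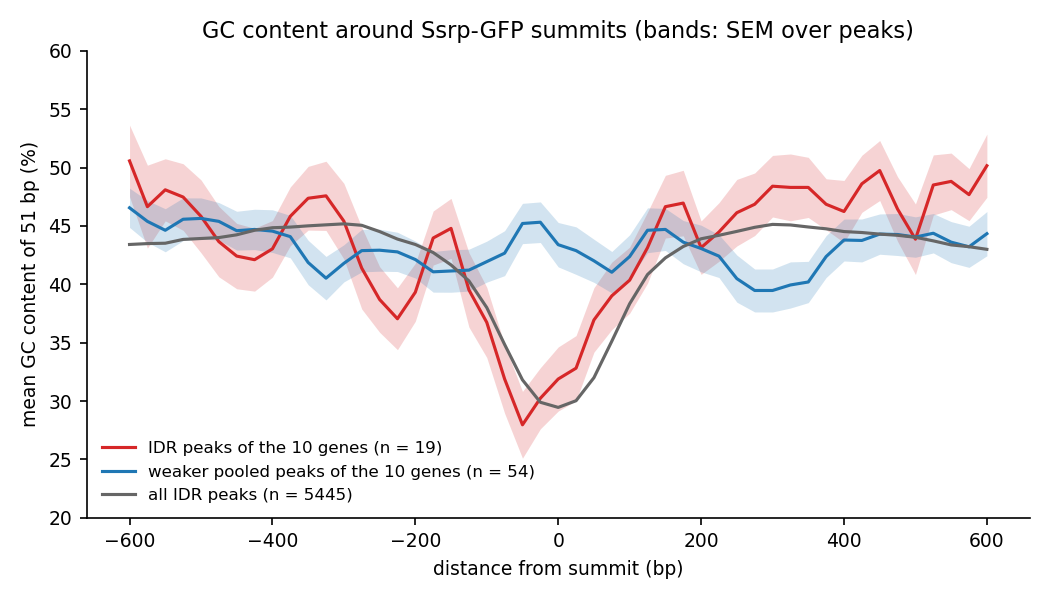
Mean GC content of 51 bp (y axis, %) by distance from the summit (x axis, bp) for the 19 IDR peaks of the 9 genes, read along the gene (red), the 54 weaker pooled peaks around the 10 genes (blue) and all 5445 IDR peaks (grey), with bands of 1 SEM over peaks on the red and blue lines; blue and grey run along the plus strand. At the summit the red line stands at 31.9%, the blue at 43.4% and the grey at 29.5%.

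Elements bound by some of these same proteins, and beside them the E-box and the TATA box, were sought within 100 bp of the 16 promoter summits, on both strands. The DRE, TATCGATA, which Dref binds, was in 0 of the 16 windows, against 4.7% of all 2214 IDR promoter summits. Its last letters CGATA, the core of BEAF-32 sites and a part of the DRE, were in 4 windows (at Chro, Dref, pita and BEAF-32), against 30.6%. GAGAG, bound by GAGA factor, was in 1 window, that of Dref, against 15.4%. GGTCACACT, the core of the motif 1 that M1BP recognises, and the E-box CAGCTG were in none, against 1.5% and 7% of all. TATAAA, the TATA box, was in 6 windows, against 44.6%. In all, 8 of the 16 held at least 1 of the 6 elements, against 71.5% of all IDR promoter summits. Within 200 bp of the summit the DRE was in 5 of the 16 windows, at Cp190, BEAF-32, mod(mdg4) and 2 of pita, against 10.7% of all. At the same 200 bp CGATA was in 10 windows (53.5% of all) and TATAAA in 8 (59.8%). GAGAG was in 2 (37.5%), CAGCTG in 1 (21.9%) and GGTCACACT in 0 (6.2%). A match in letters does not show that a protein binds there.

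A wider list of 32 genes for other insulator partners, BTB and zinc finger factors, cohesin and condensin lay between the 10 genes and the rest. Of these 17 (53.1%) had an IDR summit in the gene or within 2 kb, and 12 (37.5%) had one within 500 bp of a TSS, beside the 35.5% and 19.3% of all protein-coding genes. The list holds long genes, such as psq (59393 bp) with and Nipped-B (37346 bp) without an IDR summit. No share among genes of its own range of lengths was computed. The strongest peak of those 17 had a median rank of 1683. JIL-1, a histone H3 kinase gene whose product works with that of Chro, led with an intronic peak of rank 193 (signal 1423), ranked 193 in replicate 1 and 194 in replicate 2. pzg, which encodes another Chro partner, followed at rank 527 with its summit 257 bp upstream of the TSS, and the cohesin gene SA1 at rank 619, 126 bp upstream. The condensin genes SMC2 and Cap-D3 followed at ranks 829 and 1030. The peak of Cap-D3 lay 1824 bp upstream of its TSS, at a promoter of another gene.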

How the data were processed

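Processed peak lists of 2 replicates were analysed. Per the text deposited with the samples, all lists are on dm6, each replicate list comes from that replicate's alignment and 1 further shared alignment, the pooled list from both, and the IDR list from these 3. Sources used here do not give the aligner, peak caller or thresholds. The deposited signal per peak, the deposited summit and the deposited −log10 of the q-value were used as the authors gave them, the last only for an alternative ranking. Signals were ranked within a list and never compared between lists. Read depth is unknown.

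Genes came from Ensembl release 115 on the same assembly and sequence from the RefSeq copy of release 6, without transposable elements. Computations used Python 3.11.15, numpy 2.4.6 and pandas 2.3.3. A peak was matched to a replicate by summits within 200 bp, and the placement code was tested on simulated data. The 10 genes, the lists and the settings were chosen with earlier results of these data known. Named genes are the 10, the gene of the TSS nearest each IDR peak, and the 5 strongest of the wider list. Head-to-head, overlapping or other close neighbours and further genes of the wider list are named outside this rule, after their values were seen. Shares of the 10 genes stand beside those of all protein-coding genes as descriptions. Alternatives varied the windows, the lists, the assignment of peaks, the replicates and the rank measure.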

Additional observations from a re-analysis of the deposited data

How the results depend on the processing

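The number of the 10 genes with an IDR summit stayed between 6 and 10 under the 10 alternatives tried for it. It was 6 with summits in the gene only (12.2% of protein-coding genes), 7 with peaks counted only for the gene whose TSS is nearest (21.8%), 8 in the stronger 2722 IDR peaks (22.9%), and 8 and 10 from 1 replicate alone (35.6% and 35.3%). The number with a promoter summit ran from 6 in the stronger 2722 IDR peaks (11.8%) to 10 in the 10890 strongest pooled peaks (29.1%). Some values moved by more than the spread between replicates, and the cause was not tested. The median rank of the 19 peaks, 2009, was 1819 and 2086 from 1 replicate alone and 1782.5 when ranked by −log10 q, where many peaks tie. The median distance to the TSS, 143 bp, was 348 bp from the most 5′ TSS and 143 and 158 bp from 1 replicate alone. The GC content, 31.5%, was 31.9% with 25 bp on either side, 33.5% with 100 bp, and 31.0% and 31.4% from 1 replicate alone. The values from 1 replicate alone for distance and GC content were added after seeing the data. Promoter summits with any element numbered 14 of 16 with 200 bp on either side, against 93.2% of all IDR promoter summits. No paired analysis was possible because there is only 1 group. The unknown depth limits what a missing peak means: CTCF lay just past the end of the IDR list.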

Other observations

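Within the wider list, IDR summits were counted for the condensin and the cohesin genes, groups named after their values were seen. Of 7 condensin genes 5 had one in the gene or within 2 kb and 4 at a promoter of their own, against 35.5% and 19.3% of all protein-coding genes, while Cap-G and glu had none. SMC2 had its summit 129 bp upstream of a TSS at rank 829, and Cap-H2 190 bp upstream at rank 1157. Cap-D2 had it 90 bp upstream at rank 2557, and barr 146 bp downstream at rank 2750. Of 6 cohesin genes 2 had one in the gene or within 2 kb, against the same 35.5%: SA1 and, at rank 5326 and at a promoter of another gene, wapl, while SMC1, SMC3, vtd and Nipped-B had none. The difference between these small lists was not tested. None of the 4 genes of the ELBA group (Elba1, Elba2, Elba3 and insv), whose products bind an insulator of the bithorax complex in the early embryo, had an IDR summit within 2 kb, beside the same 35.5%, against which lists of 4 genes say little. Of the zinc finger insulator genes ZIPIC, Ibf1, Ibf2 and dwg, only Ibf1 had one, of rank 4459, with its summit 1603 bp downstream of the TSS of Ibf1, at a promoter of another gene.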
